A study of Mus musculus with 18 samples.

Results

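Serpins are a family of protease inhibitors that act as bait: the target protease cuts a loop of the serpin and is then trapped in a covalent complex. In leukocytes the intracellular serpins, most of them in clade B, are known for shielding the cell from granule and lysosomal proteases of its own or of its neighbours. The Serpina3 genes of the mouse form a cluster of close copies on chromosome 12 that corresponds to a single human gene, and they are known as acute-phase and interferon-responsive genes. Here 6 mouse serpins were followed by gene symbol: Serpina3g, Serpina3f, Serpina3n, Serpinb2, Serpinb6a and Serpinb9. They are 6 of the 68 serpin genes and 6 of the 54446 genes in the deposited table, and 24 of the serpin genes had no read in any library.

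The RNA came from eosinophils of the peritoneal cavity of Il5 transgenic (Il5Tg) mice, given the strain C57BL/6 in the labels, and antibody beads had taken T and B cells out before culture. All 18 libraries were of eosinophils cultured for 18 h with apoptotic cells (ACs), which were thymocytes of wild-type mice aged 4 to 6 weeks killed by 6 h in dexamethasone, at 5 apoptotic cells per eosinophil. After culture the eosinophils were purified again on Siglec-F beads. In the Type 1 experiment there were 3 libraries with ACs alone and 3 for each of 3 stimuli given beside them: E. coli, IFN-γ, or IFN-γ followed by E. coli (called both stimuli here). These 3 comparisons share their ACs libraries. The IL-4 experiment held 3 libraries each of ACs alone and IL-4 + ACs. Doses, the age of the eosinophil donors and the promoter of the transgene were not used here, and eosinophils without apoptotic cells were not analysed here. The study describes its replicates as biological, while the labels do not say which libraries came from separate mice or cultures, and p-values measure the spread between these libraries. The question put to the serpins was how each stimulus changed their transcripts in eosinophils that had met apoptotic cells, each stimulus being set against the ACs libraries of its own experiment.

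A library held 779421 to 7782072 counted reads (median 4461121). Replicate 3 was the shallow one in both groups of the IL-4 experiment, with 849705 reads for IL-4 + ACs and 779421 for ACs, and 3 reads stood there for normalized counts of 15.42 and 16.08. Of the markers of eosinophils, Ccr3 and Siglecf were high in every group, with group means of 2974 to 4498 and 1630 to 3237 normalized counts, whereas the granule gene Epx had group means of 0.46 to 14.1. All 13 macrophage markers looked at were detected in every group, and their summed level was 18325 to 50134 normalized counts per library. The 10 eosinophil markers summed to 10004 to 26586. Sums over different gene lists do not measure shares of cells. By flow cytometry after the Siglec-F beads, the study reports cells that were nearly all eosinophils. The 14 thymocyte markers summed to 57.9 to 271. Bulk libraries cannot tell fewer cells of a type from less RNA per cell. Of the 14 stimulus response genes listed, Cxcl9, an IFN-γ target, rose 7.60 on the log2 scale with IFN-γ + ACs (limma, adjusted p = 1.2e-12). Il1b, listed for E. coli, rose 3.06 with E. coli + ACs (adjusted p = 3.7e-05). Chil4, an IL-4 target, rose 5.09 with IL-4 + ACs (adjusted p = 0.000791). Others did not keep to their stimulus. Saa3, listed for E. coli, did not pass the threshold with E. coli + ACs, and Il6, also listed for it, rose 2.76 with IL-4 + ACs. Arg1, listed for IL-4, rose 2.06 with IFN-γ + ACs and did not pass with IL-4 + ACs.

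Serpina3g, Serpina3f and Serpinb9 were the members that moved most with IFN-γ. The 250 bases before their RefSeq start sites (GRCm38.p6, all on the plus strand) are shown first, with those of Serpina3n. That close copy had 3 reads in the Type 1 ACs libraries and 0 in those with IFN-γ + ACs, so its response was not tested. Capitals mark matches to 2 motifs, the gamma-activated site (TTCNNNGAA) and the interferon-stimulated response element (TTTC, any 2 bases, TTTC), searched on both strands. The windows lay at chr12:104235897-104236146 for Serpina3g, chr12:104214294-104214543 for Serpina3f, chr12:104406458-104406707 for Serpina3n and chr13:33004291-33004540 for Serpinb9, and the last of these falls in an intron of a longer annotated Serpinb9 transcript.
Serpina3g: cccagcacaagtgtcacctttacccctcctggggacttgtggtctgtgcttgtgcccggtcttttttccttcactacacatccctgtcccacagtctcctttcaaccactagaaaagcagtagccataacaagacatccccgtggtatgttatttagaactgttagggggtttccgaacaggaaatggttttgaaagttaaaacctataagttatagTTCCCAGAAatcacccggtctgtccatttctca
Serpina3f: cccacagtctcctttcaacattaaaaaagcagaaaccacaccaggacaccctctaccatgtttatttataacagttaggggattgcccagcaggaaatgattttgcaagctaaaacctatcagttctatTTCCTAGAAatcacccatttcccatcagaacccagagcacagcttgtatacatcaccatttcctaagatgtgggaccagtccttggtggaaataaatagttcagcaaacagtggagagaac
Serpina3n: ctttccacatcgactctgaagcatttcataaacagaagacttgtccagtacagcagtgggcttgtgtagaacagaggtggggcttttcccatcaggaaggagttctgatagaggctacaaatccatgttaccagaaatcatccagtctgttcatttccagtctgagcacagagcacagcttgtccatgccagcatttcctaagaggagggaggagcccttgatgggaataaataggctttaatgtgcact
Serpinb9: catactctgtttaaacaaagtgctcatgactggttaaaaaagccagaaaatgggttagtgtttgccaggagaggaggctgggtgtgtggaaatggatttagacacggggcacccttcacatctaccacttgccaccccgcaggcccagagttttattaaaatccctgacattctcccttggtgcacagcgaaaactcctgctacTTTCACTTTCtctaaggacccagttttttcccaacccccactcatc
A gamma-activated site match began 33 bases before the start of Serpina3g and 121 bases before that of Serpina3f. Around the match the windows of Serpina3g and Serpina3f were alike at 32 of 49 bases. The Serpina3n window held no match to any of the 4 motifs searched. The other 2 were the STAT6-type site (TTC, any 4 bases, GAA) and the NF-kB site (GGGA, any base, TTTCC). Those 2 matched in no window of any of the 6 members, Serpina3g included. Only these letters were searched, and looser forms of the sites were not. The Serpina3g window holds gggggtttcc, which departs from the NF-kB letters at 1 base. Serpinb9 had a response element match beginning 46 bases before its start and no gamma-activated site. Of 32817 mouse promoter windows of the same length, 7.01% held the gamma-activated site letters, 2.97% the response element, 5.85% the STAT6-type letters and 0.357% the NF-kB letters. Serpinb2 and Serpinb6a, which did not pass the threshold with IFN-γ + ACs, each also had a gamma-activated site match before 1 of their 2 start sites, and the Serpinb6a match overlapped a response element match. The letters thus occurred both in members that moved with IFN-γ and in members that did not pass the threshold.

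Serpina3g, also called Spi2A, is an intracellular inhibitor of cysteine cathepsins that limits cell death after lysosomes leak. It lies at chr12:104236245-104241939. Its normalized counts were 4.88, 2.82 and 5.71 in the Type 1 ACs libraries and 10.9, 10.6 and 8.80 when E. coli was added. They reached 170.2, 206 and 158 under IFN-γ, while both stimuli gave 92.7, 105 and 93.8. In the IL-4 experiment they were 0.75, 2.34 and 0 with ACs alone and 109, 90.6 and 118 with IL-4 + ACs. Each stimulated group lay wholly above its ACs group, and Serpina3g was the one member tested that passed the threshold with all 4 stimuli.

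On the scale of log2 of the normalized count plus 1, Serpina3g rose by 5.06 ± 0.29 (SE) with IFN-γ + ACs (limma, Benjamini-Hochberg adjusted p = 1.49e-10) and by 4.203 ± 0.29 with both stimuli (adjusted p = 1.54e-09). With IL-4 + ACs it rose by 5.88 ± 0.61 (adjusted p = 0.00126). Serpina3g passed the level filter of the IL-4 fit only through the IL-4 + ACs libraries. The ratio of its pooled read levels was 40.1 with IFN-γ (95% CI 24.4 to 70.9) and 70.2 with IL-4 (95% CI 27.2 to 259), where only 4 reads were counted in the ACs libraries. The difference between the responses to IL-4 and to IFN-γ was 0.82 ± 0.54 (adjusted p = 0.36), which did not pass the threshold, and it was -0.066 with a pseudocount of 5. Against the response to E. coli, the IL-4 response was larger by 4.83 ± 0.54 (adjusted p = 7.39e-06). Against that to both Type 1 stimuli it was larger by 1.68 ± 0.54 (adjusted p = 0.031), a call lost under 12 of 22 alternatives with adjusted p up to 0.133. Leaving out any 1 of 7 libraries ended it: Type 1 ACs replicates 1 and 3, replicates 1 and 3 of both stimuli, IL-4 + ACs replicates 1 and 3, and ACs replicate 3 of the IL-4 experiment, with adjusted p from 0.0573 to 0.0766. The rise with E. coli + ACs was small, 1.06 ± 0.29 (adjusted p = 0.0201), and rested on 36 against 16 reads. Serpina3g passed the level filter of that fit only through the libraries with IFN-γ, and with no filter the adjusted p was 0.0472. It was no longer called without ACs replicate 2 (adjusted p = 0.0932), E. coli + ACs replicate 1 (0.0661) or E. coli + ACs replicate 2 (0.0621), and DESeq2 on the reads gave an adjusted p of 0.0768. A pseudocount of 5 gave 0.68 (adjusted p = 0.0617) and all 18 libraries in one fit an adjusted p of 0.0864.

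Serpina3f is the neighbouring copy at chr12:104214544-104221129 and has a different reactive loop. It had 7.32, 4.69 and 5.71 normalized counts with ACs alone and 5.02, 7.36 and 7.04 with E. coli + ACs, and these groups overlapped. IFN-γ brought it to 156, 211 and 172, and both stimuli to 68.4, 72.1 and 108. The IL-4 experiment gave 1.5, 1.56 and 0 with ACs alone and 5.21, 5.80 and 10.3 with IL-4 + ACs. The libraries with IFN-γ or both stimuli thus lay far above all others, and those with IL-4 + ACs were at 10.3 or less.

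Serpina3f rose by 4.72 ± 0.31 on the log2 scale with IFN-γ + ACs (limma, adjusted p = 9.72e-10) and by 3.59 ± 0.31 with both stimuli (adjusted p = 2.76e-08), and its difference with E. coli + ACs was 0.12 ± 0.31 (adjusted p = 0.871). Its mean was under 10 in the IL-4 experiment, so it was not in that fit. Its log2 difference with IL-4 + ACs was 2.07 with an adjusted p of 0.0117 in the joint fit of 18 libraries, and of 0.809 in the fit of the IL-4 experiment with no level filter. The libraries there held 22 reads with IL-4 + ACs against 4 with ACs, a ratio of 4.03 (95% CI 1.37 to 16.1). The exact two-sided permutation test over the libraries gave p = 0.10, the smallest that 3 against 3 allows. In the fit on all 18 libraries the IL-4 response of Serpina3f was below its IFN-γ response by 2.64 ± 0.63 (SE) on the log2 scale (adjusted p = 0.00597). Serpina3f passed the level filter of that fit only through the libraries with IFN-γ, and with no filter the adjusted p was 0.0162. Without the 2 shallow libraries that difference was -3.35 (adjusted p = 0.000121), and on a common upper quartile it was -2.29 with an adjusted p of 0.0555.

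The balance of Serpina3f and Serpina3g was also taken in reads. CEL-Seq2 counts transcript ends, so the reads of the pair were compared without a length correction. Serpina3f gave 50% of the 772 reads of the pair with IFN-γ + ACs, between 47.8% and 52.2% by library (pooled 95% Wilson interval 46.5% to 53.5%). It gave 45.8% with both stimuli (41.0% to 50.7%). With IL-4 + ACs it gave 5.43% of 405 reads (3.61% to 8.09%), and 4.57%, 6.01% and 8.00% in the 3 libraries. The IL-4 libraries thus lay wholly below those with IFN-γ or with both stimuli in the plot of the balance. In the last 500 bases of its longest coding transcript, 9.46% of the stretches of 36 bases of Serpina3f also occur in another gene, and 10.1% of those of Serpina3g do, mostly in each other. The TopHat2 and HTSeq pipeline of the study counted uniquely mapped reads only, which would leave out reads lying wholly on those stretches. The effect on the balance was not tested.

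**Figure D1:**
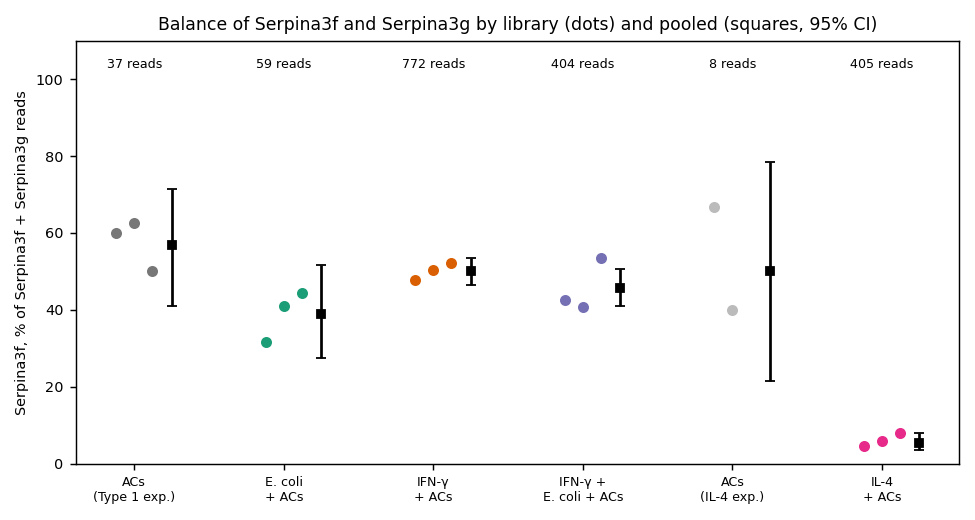
Share of Serpina3f among the reads counted on Serpina3f and Serpina3g, in percent, for each library (dots; 1 ACs library of the IL-4 experiment had no read) and pooled by group (squares, with 95% Wilson intervals that cover counting error only); the number of reads stands above each group. The 3 IL-4 + ACs libraries sit at 4.57% to 8.00%, and the 3 IFN-γ + ACs libraries at 47.8% to 52.2%.

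Serpina3n, a secreted inhibitor of granzyme B and leukocyte elastase, lies further along the cluster at chr12:104406729-104414329. It was read in 4 of 18 libraries. In the Type 1 experiment its only reads were 3 in ACs replicate 3 (2.45 normalized counts), and it was at 0 in all 9 libraries with IFN-γ, E. coli or both. All 3 IL-4 + ACs libraries held it, at 10.4, 6.32 and 30.8 normalized counts, against 0 in the 3 ACs libraries of that experiment. That is 36 reads against 0 (exact permutation p = 0.10, n = 3 and 3). With a floor of 3 reads set for the ACs group the ratio was 8.80, which allows for no error in the 36 reads. The highest of the 3 values came from the shallow library. Serpina3n was below the level filter of every fit. With that filter dropped, its log2 change with IL-4 + ACs was 3.79 with an adjusted p of 0.189 (limma). The IL-4 response minus the IFN-γ response was 4.39. As 14 of the 18 libraries were at 0, most groups had no spread, and nothing is drawn from a test of that difference. The IFN-γ response in it, -0.60, came from the 3 reads in 1 ACs library.

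Serpinb9 is the mouse granzyme B inhibitor of the cell interior and lies at chr13:33003250-33017957. It stood at 26.8, 40.35 and 53.8 normalized counts with ACs alone and at 91.25, 58.9 and 70.4 with E. coli + ACs. Under IFN-γ it was at 530.25, 528 and 616, and under both stimuli at 456, 241 and 399. The IL-4 experiment gave 45.9, 58.4 and 26.8 with ACs alone and 13.9, 19.5 and 66.8 with IL-4 + ACs. The IFN-γ libraries were all far above the ACs libraries, and the IL-4 libraries fell on both sides of theirs.

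Serpinb9 rose by 3.81 ± 0.25 on the log2 scale with IFN-γ + ACs (limma, adjusted p = 1.04e-09) and by 3.15 ± 0.25 with both stimuli (adjusted p = 9.94e-09). With E. coli + ACs the rise was 0.88 ± 0.25 (adjusted p = 0.0239). That call was lost without ACs replicate 1 (adjusted p = 0.139), ACs replicate 2 (0.0573), E. coli + ACs replicate 1 (0.126) or E. coli + ACs replicate 3 (0.0616), and with all 18 libraries in one fit (0.204). With IL-4 + ACs the difference was -0.63 ± 0.56 (adjusted p = 0.742). The highest value of that group, 66.8, came from the shallow library, where it stands for 13 reads. Without the 2 shallow libraries the difference was -1.59 (adjusted p = 0.00716), past the threshold, and with limma's array weights it was -1.39 (adjusted p = 0.00442). The IL-4 response of Serpinb9 was below its IFN-γ response by 4.44 ± 0.58 on the log2 scale (adjusted p = 1.37e-05). Its last 500 bases shared no stretch of 36 bases with another annotated gene.

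**Figure D2:**
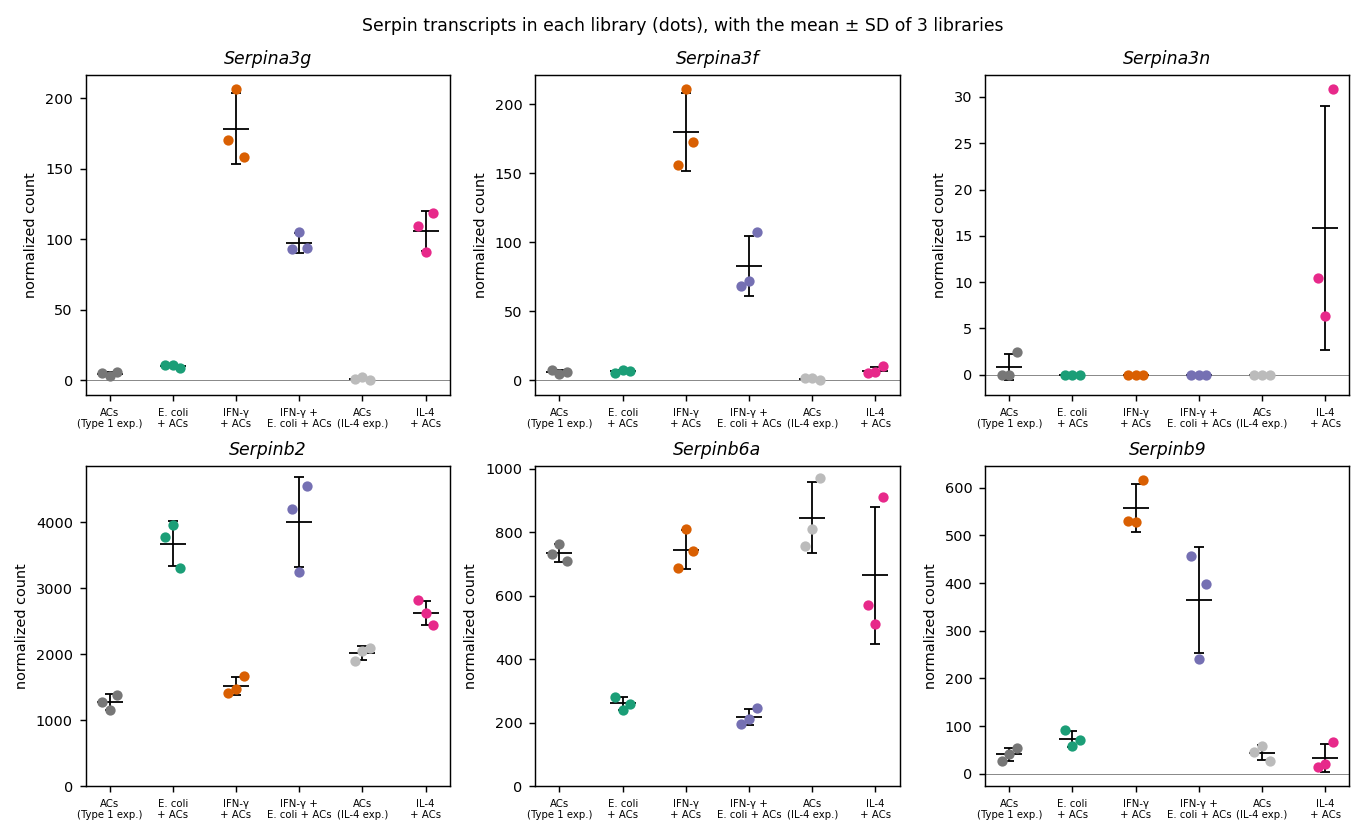
Normalized count (linear axes, each panel on its own scale) of the 6 serpins in every library by group; dots are libraries and bars are the mean ± SD of 3. Serpina3g was high with IFN-γ and with IL-4, Serpina3f and Serpinb9 with IFN-γ and with both Type 1 stimuli, and Serpinb2 and Serpinb6a lay apart from ACs alone with E. coli and with both stimuli.

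Serpinb2 encodes plasminogen activator inhibitor type 2, which blocks urokinase and is a classic bacterial-product response gene of myeloid cells. It lies at chr1:107511423-107535478. Its normalized counts were 1277, 1154 and 1389.7 with ACs alone and 3784, 3951 and 3299.5 with E. coli + ACs. They were 1417, 1467 and 1670.4 under IFN-γ, and 4201, 3247 and 4557 under both stimuli. The IL-4 experiment gave 1902, 2052 and 2096 with ACs alone and 2815, 2628 and 2447 with IL-4 + ACs. The 6 libraries with bacteria were the 6 highest of all 18.

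Serpinb2 rose by 1.53 ± 0.13 on the log2 scale with E. coli + ACs (limma, adjusted p = 1.29e-07) and by 1.64 ± 0.13 with both stimuli (adjusted p = 8.44e-09). Adding E. coli to IFN-γ raised it by 1.39 ± 0.13 (adjusted p = 7.51e-07), whereas IFN-γ on top of E. coli gave 0.11 ± 0.13 (adjusted p = 0.575). With IFN-γ + ACs the difference was 0.25 ± 0.13 (adjusted p = 0.158), and -0.012 on a common upper quartile. With IL-4 + ACs it was 0.38 ± 0.12 (adjusted p = 0.283), below 1.5-fold although the groups did not overlap. The IL-4 response was smaller than the E. coli response by 1.15 ± 0.18 (response difference -1.15, adjusted p = 0.000287), and on a common upper quartile that difference had an adjusted p of 0.404. Against both stimuli it was -1.26 ± 0.18 (adjusted p = 2.12e-05), with an adjusted p of 0.183 on that scale.

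Serpinb6a, the mouse counterpart of an inhibitor of cathepsin G and other granule proteases, lies on the minus strand at chr13:33917918-34002794. It stood at 730.25, 764 and 710.35 normalized counts with ACs alone, at 282, 241 and 259 when E. coli was added and at 197, 211 and 247 under both stimuli. IFN-γ by itself left it at 686, 810.4 and 741. The IL-4 experiment put it at 756, 809.7 and 970.4 with ACs alone and at 571, 511 and 909.8 with IL-4 + ACs. It was the member that fell, and the 6 libraries with bacteria were the 6 lowest.

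Serpinb6a fell by 1.49 ± 0.13 on the log2 scale with E. coli + ACs (limma log2 change -1.49, adjusted p = 1.69e-07) and by 1.75 ± 0.13 with both stimuli (-1.75, adjusted p = 3.23e-09). With IFN-γ + ACs the difference was 0.02 ± 0.13 (adjusted p = 0.934). With IL-4 + ACs it was -0.39 ± 0.21 (adjusted p = 0.607), where the shallow library gave the highest value of its group. Over the 18 libraries Serpinb6a and Serpinb2 were inversely related, with a Pearson r of -0.949 that describes libraries in 6 groups, which share their treatment, and carries no p.

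**Figure D3:**
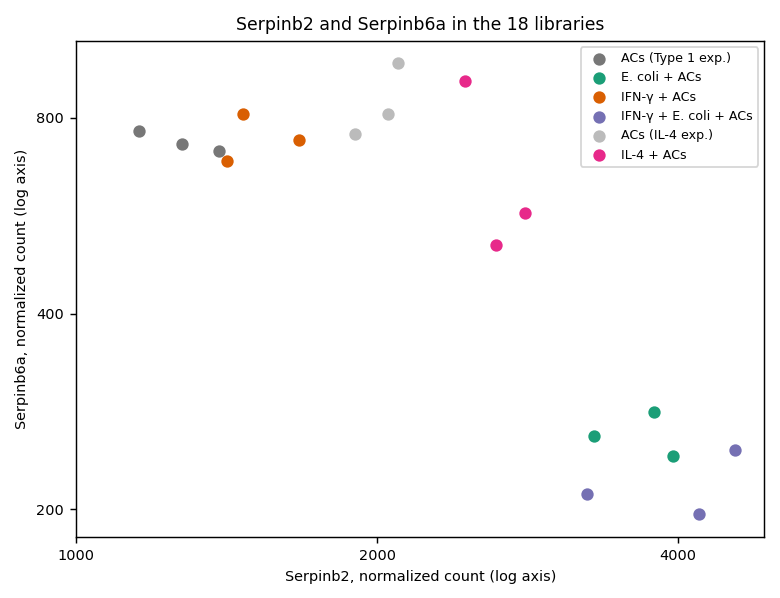
Normalized counts of Serpinb2 and Serpinb6a (both axes logarithmic) in the 18 libraries, coloured by group. The 6 libraries with E. coli lie together at high Serpinb2 (3247 to 4557) and low Serpinb6a (197 to 282).

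Macrophage markers moved with the bacterial groups too. With E. coli + ACs 5 of the 13 were lower and 1 higher, with C1qc at -1.51 and Vsig4 at -2.73 on the log2 scale and Cd14 at 0.92. With both stimuli 7 of 13 were lower and 2 higher. The summed level of the list was 23437 to 29373 with ACs alone, 20573 to 24878 with E. coli + ACs and 18325 to 19593 with both stimuli. IFN-γ raised 4 of 13 and lowered 1, with sums of 33070 to 44842, while 4 of 7 eosinophil markers tested were lower there, with sums of 10004 to 11253. With IL-4 + ACs 1 macrophage marker was lower. C1qc was also among the 3 genes whose levels ran most like those of Serpinb6a. The part of the macrophage transcripts in the serpin results was not tested.

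**Figure D4:**
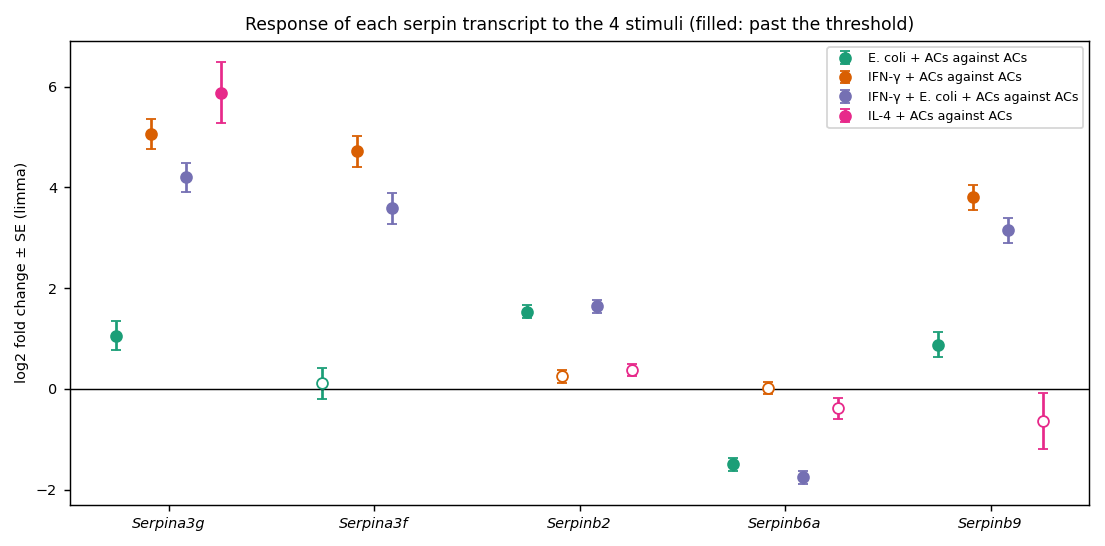
Log2 fold change ± SE from limma on log2(normalized count + 1) for the 5 serpins that passed the level filter, in each comparison with ACs alone; filled points passed the threshold. Serpina3f has no IL-4 point because its mean was under 10 in that experiment, and Serpina3n has none.

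The counts over members describe them and support nothing further, since Serpina3g and Serpina3f passed the level filter only through groups in which they were high. Of the members, 4 of the 5 tested passed an adjusted p under 0.05 with a change of at least 1.5-fold in E. coli + ACs against ACs, 3 higher and 1 lower, where 10.3% of all genes tested did (5.05% higher and 5.25% lower). With ACs replicate 2 or E. coli + ACs replicate 1 left out, 2 did. In IFN-γ + ACs against ACs 3 of 5 passed, all higher, against 21.4% of all genes (11.4% higher and 9.96% lower). With both stimuli all 5 passed, 4 higher and 1 lower, against 31.9% (14.7% higher and 17.2% lower). In IL-4 + ACs against ACs 1 of 4 passed, against 1.09% of all genes (0.74% higher and 0.347% lower), and without the 2 shallow libraries 2 did, Serpina3g higher and Serpinb9 lower, where 656 of 10629 genes did. The median log2 change of the members tested was 0.88, 3.81, 3.15 and -0.0029 in the same order, beside medians of all genes between -0.047 and -2.1e-06.

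The IFN-γ and E. coli libraries also show what 1 stimulus added to the other. Adding IFN-γ to E. coli raised Serpina3g by 3.15 ± 0.29 (limma, adjusted p = 1.97e-07), Serpina3f by 3.47 ± 0.31 (adjusted p = 1.16e-07) and Serpinb9 by 2.27 ± 0.25 (adjusted p = 2.11e-06), so that 3 of 5 members passed against 19.4% of all genes (9.79% higher and 9.57% lower). Adding E. coli to IFN-γ had the opposite sign for the Serpina3 pair. Serpina3f was lower by 1.13 ± 0.31 (log2 change -1.13, adjusted p = 0.0136), and not called without IFN-γ + ACs replicate 2 (adjusted p = 0.079) or IFN-γ + E. coli + ACs replicate 1 (0.0608). Serpina3g was lower by 0.86 ± 0.29 (-0.86, adjusted p = 0.0443), and this call was lost whichever library was left out, with adjusted p up to 0.167. Serpinb9 changed by -0.66 ± 0.25 (adjusted p = 0.0727), and by -0.84 without IFN-γ + E. coli + ACs replicate 1 (adjusted p = 0.0442). Together 4 of 5 members passed in that comparison, against 14.6% of all genes (5.96% higher and 8.61% lower), and 2 did without IFN-γ + ACs replicate 2. Macrophage markers were lower there in 10 of 13, and their part was not tested.

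The interaction asks whether the effect of E. coli differed with IFN-γ present. It was -1.92 ± 0.41 for Serpina3g (limma, adjusted p = 0.00738) and -1.54 ± 0.35 for Serpinb9 (adjusted p = 0.0115), and 2 of 5 members passed against 7.44% of all genes (3.16% higher and 4.28% lower). Serpina3f had -1.24 ± 0.43 (adjusted p = 0.0871), and Serpinb2 and Serpinb6a had -0.14 ± 0.18 and -0.28 ± 0.18 (adjusted p = 0.706 and 0.394). The Serpinb9 call was lost with all 18 libraries in one fit (adjusted p = 0.136). Serpina3g and Serpina3f passed the level filter of the interaction fit only through the libraries with IFN-γ. For Serpinb2 and Serpinb6a no difference was shown.

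The responses to IL-4 were set against those to the Type 1 stimuli in 1 fit of 18 libraries. Serpina3f passed the level filter of that fit only through the libraries with IFN-γ. Serpina3g passed it only through those with IFN-γ or IL-4. Against IFN-γ, 2 of 5 members differed, Serpina3f and Serpinb9, both lower with IL-4 (Serpinb9 alone with a mean of at least 50), where 14.3% of all genes differed (6.17% higher and 8.09% lower). The Serpinb6a difference there was -0.41 ± 0.24 (adjusted p = 0.29), and -0.66 without IL-4 + ACs replicate 3 (adjusted p = 0.022). Against E. coli, 3 of 5 differed and 4.43% of all genes (1.88% higher and 2.54% lower). Serpina3g and Serpinb6a had the higher response with IL-4 and Serpinb2 the lower one, and the Serpinb6a difference was 1.11 ± 0.24 (adjusted p = 0.00728). Serpinb9 had a difference of -1.51 ± 0.58 there (adjusted p = 0.167), and of -2.17 without IL-4 + ACs replicate 3 (adjusted p = 0.00485). Against both stimuli, 4 of 5 differed and 20.4% of all genes (9.67% higher and 10.8% lower). In that comparison Serpinb9 had -3.78 ± 0.58 and Serpinb6a 1.36 ± 0.24, and the difference of Serpina3f was -1.51 ± 0.63 (adjusted p = 0.0952), past the threshold without the ACs replicate 3 library of the IL-4 experiment (-1.96, adjusted p = 0.0142).

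In order of level, Serpina3g was highest with IFN-γ + ACs (mean 178 ± 25.1, SD, n = 3). IL-4 + ACs (106 ± 14.04) and both stimuli (97.2 ± 6.84) followed and overlapped, then E. coli + ACs (10.1 ± 1.14) and the 2 ACs groups. For Serpinb2 the order was both stimuli (4002 ± 677), E. coli + ACs (3678 ± 338), which overlapped, and then IL-4 + ACs (2630 ± 184), each of the others apart from its neighbour. Serpinb6a showed 2 levels, with 4 overlapping groups between means of 664 and 846 and the 2 groups with bacteria at 261 ± 20.5 and 218 ± 25.8. For Serpinb9 the means were 558 ± 49.8 with IFN-γ + ACs, 365 ± 112 with both stimuli and 73.5 ± 16.4 with E. coli + ACs, and the 3 remaining groups overlapped. The 2 ACs groups differed in their own right, though untested: Serpina3g and Serpina3f were at 0.23 and 0.17 times the Type 1 level in the IL-4 experiment and Serpinb2 at 1.58 times, all without overlap, as were 42.4% of all genes.

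Genes whose levels ran most like each member were named by Pearson r over the 18 libraries among 6902 genes with a mean of at least 50, as a description without a test. For Serpina3f they were Lap3, an aminopeptidase (r = 0.959), Fgl2, a fibrinogen-like protein (0.958), and Il2rg, the common gamma chain (0.942). Serpinb9 ran with Stx2, a syntaxin (0.966), Prdx1, a peroxiredoxin (0.963), and Vopp1 (0.957). Serpinb2 ran with Lhfpl2 (0.964), the methyl-DNA reader Mbd2 (0.963) and Cdk5r1, an activator of Cdk5 (0.960). Serpinb6a ran with the phosphatase Dusp3 (0.978), with cathepsin L, Ctsl (0.970), and with C1qc (0.968). The closest gene to Serpina3g, Gm15056, reached 0.908, followed by Cd53, a tetraspanin (0.899), and Vps26a, a retromer subunit (0.866). Libraries of a group share their treatment, so these points are not independent.

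Of the other 62 serpin genes, 8 passed the level filter among the Type 1 libraries and 5 among those of the IL-4 experiment. E. coli raised 2 of the 8 and lowered 2, IFN-γ raised 4 and lowered 1, both stimuli raised 4 and lowered 2, and IL-4 raised 1 of 5. Of all genes tested, E. coli raised 5.05% and lowered 5.25%, and IFN-γ raised 11.4% and lowered 9.96%. Both stimuli raised 14.7% and lowered 17.2%, and IL-4 raised 0.74% and lowered 0.347%. The counts describe these few genes and support nothing further. Serping1, the inhibitor of complement C1, went from 4.88, 2.82 and 3.26 with ACs to 249, 279.7 and 224 with IFN-γ + ACs, a rise of 5.78 ± 0.38 (adjusted p = 1.04e-09). It passed the level filter only through the libraries with IFN-γ.

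Serpinb1a, an inhibitor of neutrophil serine proteases, fell by 1.22 ± 0.23 with E. coli + ACs (log2 change -1.22, limma adjusted p = 0.00136) and rose by 1.49 ± 0.23 with IFN-γ + ACs (adjusted p = 7.61e-05). In the IL-4 experiment it went from 219.6, 245 and 279 to 638, 598 and 889 normalized counts, a rise of 1.496 ± 0.18 (adjusted p = 0.00405), and was the other serpin that passed there. On a common upper quartile no other serpin passed with IL-4 + ACs. Serpinb8 fell by 2.25 ± 0.29 with E. coli + ACs (-2.25, adjusted p = 2.5e-05), from 78.1, 60.1 and 70.1 to 15.9, 12.3 and 13.2, and by 2.09 ± 0.29 with both stimuli (-2.09). Serpinb6b, a close relative of Serpinb6a, had a rise of 1.26 ± 0.37 with E. coli + ACs (adjusted p = 0.0296), from 10.6, 15.0 and 25.3 to 37.7, 66.2 and 24.6, and these groups overlapped. It thus had the opposite sign to Serpinb6a, whose last 500 bases shared 1.29% of stretches of 36 bases with other genes, none of them Serpinb6b.

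**Figure D5:**
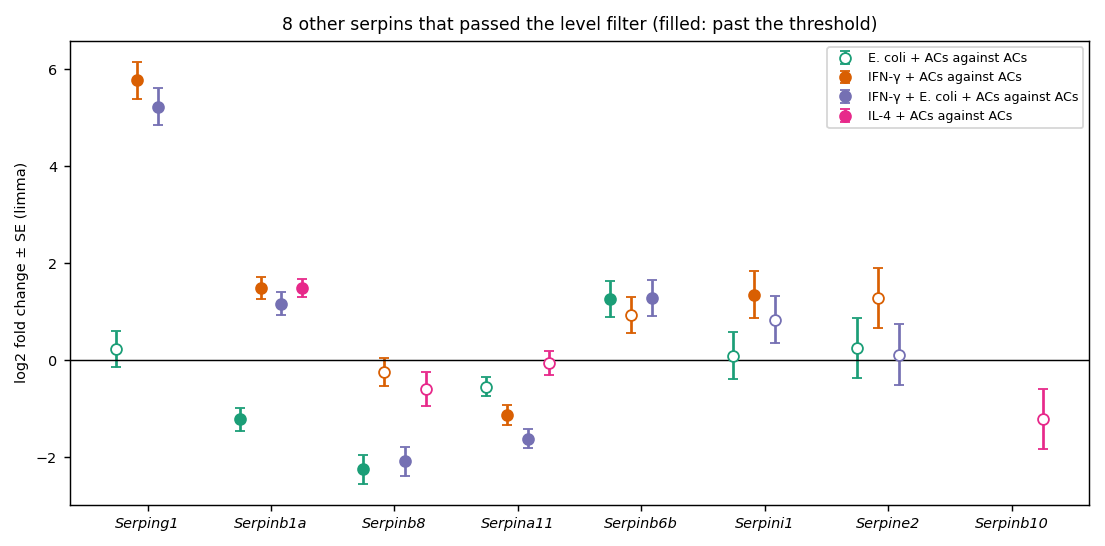
Log2 fold change ± SE from limma for 8 other serpins that passed the level filter in at least 1 experiment, in each comparison with ACs alone; filled points passed the threshold. Serping1 lies highest with IFN-γ (5.78), and Serpinb1a is the filled IL-4 point.

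Most proteases on the list looked at here were scarce as transcripts, while several cathepsins were abundant. Ctsb had group means of 3180 to 9436 normalized counts and Ctss of 3337 to 9744. Of 32 protease and protease-receptor genes listed, 11 passed the level filter among the Type 1 libraries, where E. coli raised 1 and lowered 1, IFN-γ raised 4, and both stimuli raised 2 and lowered 3. Among the IL-4 libraries 12 passed and 1 was lower. The shares of all genes tested that were called were 10.3% with E. coli, 21.4% with IFN-γ, 31.9% with both stimuli and 1.09% with IL-4. Gzmb, the target of Serpinb9 and Serpina3n, had at most 9 reads over the 3 libraries of a group, and Plau, the target of Serpinb2, at most 7. Plaur, the urokinase receptor, rose by 1.32 ± 0.16 with E. coli + ACs (limma, adjusted p = 1.1e-05) and by 1.44 ± 0.16 with both stimuli. Ctsb, a cathepsin that Serpina3g inhibits, rose by 1.01 ± 0.13 with IFN-γ + ACs (adjusted p = 1.07e-05), and Ctss by 0.98 ± 0.15. Ctsl fell by 1.31 ± 0.15 with E. coli + ACs (-1.31, adjusted p = 7.41e-06) and by 1.91 ± 0.15 with both stimuli (-1.91), and Ctsk fell by 3.31 ± 0.64 with both (-3.31, adjusted p = 0.000404). With IL-4 + ACs Prtn3, proteinase 3, fell from 54.1, 83.3 and 80.4 to 15.1, 12.1 and 5.14 normalized counts (log2 change -2.73 ± 0.45, adjusted p = 0.0178), and no listed protease passed there on a common upper quartile.

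Other inhibitor families were looked at from a list of 30 genes, of which 10 were tested among the Type 1 libraries and 11 among the IL-4 ones. E. coli raised 3 and lowered 2, IFN-γ raised 5, both stimuli raised 3 and lowered 2, and IL-4 raised 1. Over all genes tested, 10.3%, 21.4%, 31.9% and 1.09% were called in the same order. Slpi, the secretory leukocyte inhibitor, rose by 1.59 ± 0.13 with E. coli + ACs (limma, adjusted p = 7.18e-08), and the stefin Stfa3 by 2.56 ± 0.42 (adjusted p = 0.000308). Cstb, cystatin B, rose by 1.54 ± 0.14 with IFN-γ + ACs (adjusted p = 8.98e-08) and Wfdc17 by 1.41 ± 0.21. Timp2, a metalloproteinase inhibitor, fell by 1.24 ± 0.16 with E. coli + ACs (-1.24) and by 2.25 ± 0.16 with both (-2.25, adjusted p = 1.66e-09). Cst7, cystatin F, was the one that rose with IL-4 + ACs, by 1.48 ± 0.16 (adjusted p = 0.00184), a call lost on a common upper quartile, and it was lower with E. coli + ACs (-0.87 ± 0.25, adjusted p = 0.0237).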

How the data were processed

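RNA from eosinophils was made into CEL-Seq2 libraries, which count transcript 3' ends, from 2 ng of RNA. Deposited values are a signal that the authors made by dividing each gene's read count by a DESeq2 size factor of its library. Per the submitters' processing notes the tools were TopHat2 2.1.0, HTSeq 0.6.1 and DESeq2 1.26.0 on GRCm38. The methods also describe a second pipeline with other tools, and the table was taken to follow the processing notes. Whether molecular identifiers were collapsed is not given in the sources used here. Values were whole multiples of the value of 1 read for 100.0% of values (within 0.0051), so reads were recovered. Intervals and floors (3 reads) cover counting error only.

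Members were matched by Ensembl identifier to GENCODE M21 symbols, all 6 with the same version. R 4.3.3 and limma 3.58.1 (eBayes with trend) were used on log2(value + 1), for genes with a mean of at least 10 over the libraries of a comparison. The Type 1 comparisons and their interaction used 12 libraries, IL-4 used 6, and differences between responses used 18. A gene was called at an adjusted p under 0.05 and 1.5-fold. Members below the filter had an exact permutation test. Alternatives were a pseudocount of 5, other level filters (none, and a mean of 50), a replicate block, array weights, scaling to a common upper quartile, count tests on the recovered reads (DESeq2 1.42.0 and edgeR 4.0.16), 1 joint fit, no fold threshold and leaving out each library. Leaving out the 2 shallow libraries was added after seeing the data. On simulated data with 200 genes changed 4-fold, limma recovered 93.0% in the IFN-γ comparison with 8 false calls among 10166 genes. It recovered 82.0% in the IL-4 comparison with 5 among 10669. In the interaction it recovered 81.5% with 13 false calls among 10166, and for IL-4 minus IFN-γ 79.5% with 7 among 10414.

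The members and lists were chosen with earlier results of these data known. Named genes are the 6 members, up to 3 called genes with the largest change per list and comparison with ACs alone, listed relatives of a member with a mean of at least 10 in a group, and the 3 genes most like each member. Of the genes the rule picks, 1 other serpin is counted but not reported here by name. Serpina3i, Serpinb1b and Serpinb7 were named after their values were seen. Promoter sequences are RefSeq's (GRCm38.p6), and all 6 members had at least 1. Tables were handled with Python 3.11.15, pandas 2.3.3 and scipy 1.17.1.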

Additional observations from a re-analysis of the deposited data

Results flagged for a closer look

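The effect of E. coli on Serpina3g differed with and without IFN-γ by -1.92 ± 0.41 (SE) on the log2 scale (limma, adjusted p = 0.00738). Its E. coli effect was 1.06 without IFN-γ, on 36 against 16 reads, and -0.86 with it. The first of these calls was lost under 6 of 16 alternatives and the second under 11 of 16. Serpina3g passed the level filter of that fit only through the libraries with IFN-γ. The difference kept its sign and stayed past the threshold under all 22 alternatives run for it, with adjusted p from 0.00306 to 0.0438. Those alternatives rest on the same low counts.

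For Serpinb9 the same difference was -1.54 ± 0.35 (limma, adjusted p = 0.0115), from an E. coli effect of 0.88 without IFN-γ and -0.66 with it. It kept its sign under all 22 alternatives and missed the threshold in 1, all 18 libraries in one fit (adjusted p = 0.136). Macrophage markers had a negative interaction in 6 of 13, and their part in these 2 results was not tested.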

How the results depend on the processing

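Low read numbers limited Serpina3n and Serpina3f in the IL-4 experiment, and the Serpinb9 call there changed without the shallow libraries. Serpina3g had the most calls lost. For single members, 840 alternative values kept direction and call, 41 lost a call, 13 gained one and 10 changed sign, and the cause was not tested. Same-numbered libraries of different groups had residual correlations of -0.0892 to 0.085 (Type 1) and 0.0005 to 0.0208 (IL-4). Differently numbered libraries were not compared, so these values cannot settle whether replicate numbers pair the libraries. With the replicate block, which changed no other call of a member, genes called with IL-4 + ACs went from 116 to 74 and the Serpina3g change of -0.86 on adding E. coli to IFN-γ had an adjusted p of 0.0597. With IL-4 + ACs the genes called were 208 with no level filter, 27 on a common upper quartile, 745 with array weights, 212 with edgeR, 209 with DESeq2, 221 in 1 joint fit, 656 without the 2 shallow libraries and 47 to 130 with 1 library left out. edgeR on the reads called 1227, 2227 and 3276 genes with E. coli, IFN-γ and both, against 1047, 2173 and 3240 with limma.

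On a common upper quartile the median of all genes moved to -0.26 with IFN-γ, -0.35 with both stimuli and 0.15 with IL-4, and the share of calls that were higher went from 53.4% to 26.3%, 46.1% to 22.8% and 68.1% to 81.5%. For IFN-γ added to E. coli that share went from 50.6% to 22.2% (median -0.28), and for IL-4 against E. coli, IFN-γ and both from 42.5% to 54.8%, 43.3% to 68.1% and 47.3% to 80.8% (medians 0.21, 0.43 and 0.51). There Serpinb2 was at -0.012 and Serpinb6a at -0.25 with IFN-γ, Serpinb2 at -0.14 for IFN-γ added to E. coli, and Serpinb6a at 0.023 for IL-4 minus IFN-γ. Called proteases were 4 with E. coli, 2 with IFN-γ and 0 with IL-4, where other serpins and other inhibitors were also at 0. Genes called for IL-4 minus E. coli, IFN-γ and both were 146, 689 and 1173 against 461, 1486 and 2128, and 1 member was called for IL-4 minus IFN-γ, as with a mean of at least 50.

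In 1 joint fit 2 members were called with E. coli, 2 for E. coli added to IFN-γ, 1 in the interaction (495 genes against 756) and 2 with IL-4. Array weights gave 2 members with IL-4, 5 for IL-4 minus E. coli, and 1431 and 2423 genes for IL-4 minus E. coli and IFN-γ, and DESeq2 gave 711 for the former. Without the 2 shallow libraries 2 members were called with IL-4. With no level filter 2 proteases and 2 other inhibitors were called with IL-4, edgeR called 2 proteases, and a mean of at least 50 left 2 other serpins with E. coli. With a pseudocount of 5 Serpina3g was at -0.066 for IL-4 minus IFN-γ, and edgeR put Serpinb6a at -0.0032 with IFN-γ. With 1 library left out, 2 to 4 members were called with E. coli, 2 to 3 for E. coli added to IFN-γ, and 400 to 1026 genes in the interaction (400 without E. coli + ACs replicate 1). Serpina3f then ranged from -0.015 to 0.26 with E. coli, Serpinb6a from -0.043 to 0.077 with IFN-γ (-0.0057 without ACs replicate 3), and Serpinb2 from -0.24 to 0.00092 in the interaction.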

Other observations

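More Serpina3 copies were read with IL-4 + ACs than with ACs alone in that experiment. Serpina3m stood at 8.11, 8.43 and 15.4 normalized counts (33 reads) against 0, 0.78 and 0 (1 read). Serpina3i stood at 7.53, 5.27 and 5.14 (24 reads) against 0, 0.78 and 0 (1 read). In the Type 1 ACs libraries Serpina3m stood at 3.25, 6.57 and 0.82 (12 reads) and Serpina3i at 3.25, 1.88 and 0 (6 reads). Serpina3m also had 5 reads with both stimuli, and Serpina3i had 2 reads with E. coli + ACs. Both were at 0 in every library of the IFN-γ + ACs group, and neither passed the level filter. Of the last 500 bases of Serpina3i, 5.81% of the stretches of 36 bases also occur in another gene, most often Serpina3f, and 0.645% of those of Serpina3m do.

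Serpinb1b stood at 18.5, 20.6 and 18.5 normalized counts with IFN-γ + ACs and at 0 in the 3 ACs libraries of that experiment, with 7.13, 13.4 and 5.52 when both stimuli were given. Serpinb7 stood at 13.8, 0 and 17.9 with ACs alone in the Type 1 experiment, at 43.5, 9.81 and 26.4 with E. coli + ACs, which overlapped them, and at 0 in the 3 libraries with IFN-γ + ACs. These values are given without a test.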
